A study of Mus musculus with 458 samples.

Results

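The Rab genes encode a large family of small GTPases that direct vesicle traffic. They were taken as every row of the deposited expression table whose symbol is Rab followed by a number and at most 1 letter, which gave 57 of 22645 genes. The table holds single haematopoietic stem cells (HSCs) from C57BL/6 mice. Single Vwf+ HSCs, which express the von Willebrand factor gene, had been transplanted, and the recipients were scored over 16 weeks as platelet-restricted (PLT), platelet-, erythroid- and myeloid-restricted (PEM) or multilineage (MUL). Donor-derived HSCs were then index sorted from recipient marrow as LSK CD150+CD48-CD45.2+ cells and sequenced 1 cell per library with the SMARTer Ultra Low RNA kit. There were 93 and 84 cells from the 2 PLT mice, 93 and 25 from the 2 PEM mice, and 78 and 85 from the 2 MUL mice, 458 cells in all. Each mouse thus carries the progeny of 1 transplanted cell, so each group rests on 2 clones. The cell titles of both MUL mice begin with the same prefix, while those of each other mouse have a prefix of their own. What the prefix marks is not given in the sources used here, and it cannot be told apart from the group.

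A Rab protein switches between a GDP-bound form, held soluble by a GDP dissociation inhibitor, and a GTP-bound form on a membrane, where it recruits effectors that move, tether or fuse vesicles. Activators (GEFs) load GTP, inactivators (GAPs) trigger its hydrolysis, and a lipid added by Rab geranylgeranyl transferase anchors the protein. In the platelet lineage, Rab27a and Rab27b act in granule secretion, and Rab32 and Rab38 act in delivering cargo to lysosome-related organelles such as dense granules. Transcripts of these genes in a stem cell do not show that granules are present.

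Values are RPKM (reads per kilobase per mapped read total), so levels can be compared between genes. A cell was counted as positive for a gene at 1 RPKM or more. The median depth of a mouse was between 4.28 and 5.32 M mapped reads per cell, and single cells held between 1.30 and 17.3 M. The sorted identity was checked against markers: between 61.3% and 98.9% of the cells of a mouse had at least 3 of 14 listed HSC markers. Cd48, which the gate excludes, reached 1 RPKM in 2.15% of the cells or fewer in each mouse. Slamf1, the gene of CD150, which the gate requires, reached 1 RPKM in a minority of cells in each mouse. Its share was lowest in MUL mice, at 10.3% and 4.71%, and lay between 17.9% and 37.6% in the other mice. Transcripts of other cell types were also present. Summed neutrophil markers averaged 3153 and 219 RPKM in PLT mice, 400 and 15181 RPKM in PEM mice, and 264 and 1394 RPKM in MUL mice, with 5 to 9 of the 13 markers in the table above 0. Cells with at least 3 macrophage and monocyte markers made up 10.8% and 22.6% in PLT mice, 38.7% and 36% in PEM mice, and 16.7% and 25.9% in MUL mice. By this share the PEM mice were the highest. These markers summed to 581 and 625 RPKM in PLT mice, 617 and 1599 in PEM mice, and 541 and 763 in MUL mice. By that sum the groups overlapped. The median share of mitochondrial reads was 6.41% and 6.69% in PLT mice, 4.01% and 4.03% in PEM mice, and 6.06% and 5.34% in MUL mice, with the PEM mice the lowest. The part of either in the differences between groups was not tested. As an alternative, cells with at least 3 markers of another type were left out.

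Of the 57 Rab genes, 51 reached 1 RPKM in some cell and 38 did so in every mouse. Rab3b, a secretory Rab, Rab25, an epithelial recycling Rab, and Rab39 were listed at 0 in every cell. Rab9b, Rab15 and Rab26 were above 0 in some cells but under 1 RPKM in all. The 46 genes whose mean reached 1 RPKM in 2 or more mice were tested between groups. The other 11 were the 6 just named with Rab3c, Rab30, Rab33a, Rab42 and Rab44. The 10 highest genes held 66.9% of the summed Rab RPKM.

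**Figure D1:**
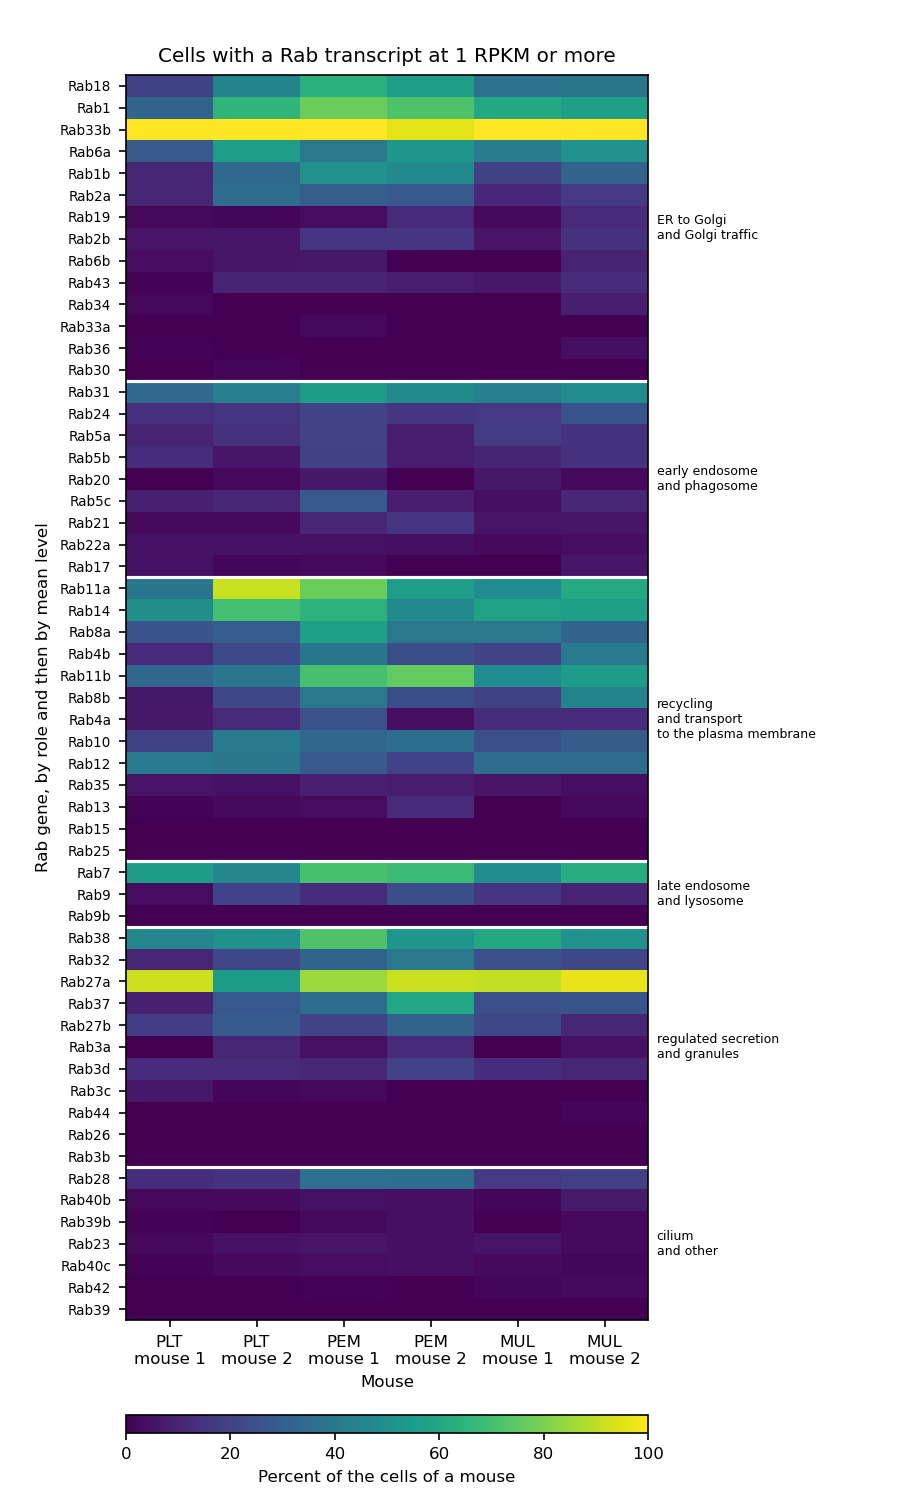
Percent of the cells of each mouse (columns) with each of the 57 Rab genes (rows, grouped by role) at 1 RPKM or more. Rab33b and Rab27a are the only rows above 50% in every mouse, and most other rows change from mouse to mouse within a group.

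Rab33b, a Golgi Rab that also binds the autophagy protein Atg16l1, was the most widely detected member. It was above 0 in 458 of 458 cells, at 1 RPKM or more in 457 and at 10 RPKM or more in 436. Its median was 28.3 RPKM and its lowest cell 0.853 RPKM, so it varied in amount rather than between present and absent. Its mean was 73.1 and 57.3 RPKM in PLT mice, 34.3 and 72 RPKM in PEM mice, and 42.4 and 47.7 RPKM in MUL mice. Both PLT mice lay above both MUL mice, while the PEM mice were the lowest and the second highest of the 6. Of all genes, 86 (0.380%) were at 1 RPKM or more in all cells or all but 1. Among them was Nanog, a pluripotency gene named here after its values were seen, at a median of 48.0 RPKM and never under 1.53 RPKM. What puts so uniform a signal on Rab33b and Nanog was not tested. In the GENCODE annotation of the mm10 build, 18.7% of the exon bases of Rab33b, on chromosome 3, overlap those of another gene, Gm38160, on the other strand.

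The 250 bases before an annotated start are shown for 3 members that differ in how they are spread over cells: Rab33b, in nearly every cell, Rab27a, with a low and a high mode, and Rab32, in a minority of cells. Rab27a has 2 starts listed, of which the first is shown. They are from RefSeq on GRCm38.p6, 5′ to 3′ on the gene's strand, with matches to the GC box GGGCGG (either strand) in capitals.
Rab33b, chr3:51483716-51483965, plus strand: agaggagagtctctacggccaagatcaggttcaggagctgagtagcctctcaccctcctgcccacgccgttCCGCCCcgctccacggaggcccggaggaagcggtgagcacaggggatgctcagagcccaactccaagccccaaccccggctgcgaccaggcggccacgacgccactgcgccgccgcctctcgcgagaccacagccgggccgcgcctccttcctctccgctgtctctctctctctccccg
Rab27a, chr9:73044560-73044809, plus strand: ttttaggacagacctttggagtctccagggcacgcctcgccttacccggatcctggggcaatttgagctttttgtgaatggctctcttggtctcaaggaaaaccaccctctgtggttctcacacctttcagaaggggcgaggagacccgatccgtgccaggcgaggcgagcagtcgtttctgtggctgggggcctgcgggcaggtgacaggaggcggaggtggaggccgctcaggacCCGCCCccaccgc
Rab32, chr10:10558208-10558457, minus strand: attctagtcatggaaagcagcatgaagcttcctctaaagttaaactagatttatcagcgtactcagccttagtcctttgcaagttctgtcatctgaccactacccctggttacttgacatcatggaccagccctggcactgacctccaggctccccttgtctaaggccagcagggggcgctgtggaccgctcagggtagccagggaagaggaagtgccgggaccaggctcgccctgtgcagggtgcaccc
Rab33b and Rab27a had 1 GC box each and Rab32 had none. The CpG count was 23 for Rab33b, 14 for Rab27a and 5 for Rab32. Over the 59 promoters listed for 47 Rab genes, 67.8% held GGGCGG, against 32.7% of all 32851 promoters, and the median CpG count was 15 against 6.00. The E-box CACGTG was in 8.47% of Rab promoters and 6.02% of all, CATGTG in 10.2% and 12.3%, the GATA motif AGATAA in 3.39% and 9.99%, and the ETS motif CCGGAAG in 5.08% and 6.91%. Each motif was sought on both strands, and a match is a description of the letters only.

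Of the granule members, Rab38 was the highest of all Rab genes by level. It averaged 239 and 139 RPKM in PLT mice, 236 and 154 RPKM in PEM mice, and 350 and 196 RPKM in MUL mice. The groups overlapped throughout. Positive cells made up 46.2% and 50% in PLT mice, 72% and 52.0% in PEM mice, and 60.3% and 50.6% in MUL mice. The PLT mice had the 2 lowest shares, though the higher of them was close to MUL mouse 2, and the share had a limma unadjusted p of 0.545 in PLT minus MUL. Rab38 was all or little: of its 255 positive cells only 28 lay between 1 and 10 RPKM, and the highest cell reached 1897 RPKM.

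Rab32, its close relative, was carried by fewer cells. Its mean was 29.6 and 36.2 RPKM in PLT mice, 49.5 and 107 RPKM in PEM mice, and 128 and 49.8 RPKM in MUL mice. The PLT mice were the 2 lowest of the 6. By limma, PLT minus MUL was -1.26 ± 0.58 (SE, n = 2 mice each) on the log2(RPKM + 1) scale with an adjusted p of 0.606, and PLT minus PEM was -1.13 ± 0.58 with an adjusted p of 0.628. Positive cells made up 10.8% and 21.4% in PLT mice, 32.3% and 40.0% in PEM mice, and 24.4% and 21.2% in MUL mice. With cells bearing markers of other types left out, Rab32 averaged 34.3 and 34.8 RPKM in PLT mice, 55.6 and 101 RPKM in PEM mice, and 102 and 46.6 RPKM in MUL mice, with the PLT mice again the lowest.

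Rab27a, which is mutated in ashen mice, was positive in 387 cells. Of these, 204 lay between 1 and 10 RPKM and 183 at 10 RPKM or more, so the gene had a low mode as well as a high one. Its mean was 98.6 and 11 RPKM in PLT mice, 44.5 and 37.3 RPKM in PEM mice, and 73.9 and 75.7 RPKM in MUL mice. The 2 PLT mice were the highest and the lowest of the 6, and PLT minus MUL was -1.13 ± 0.85 (SE, limma adjusted p = 0.770). The share at 10 RPKM or more was 43.0% and 15.5% in PLT mice, 47.3% and 40.0% in PEM mice, and 43.6% and 49.4% in MUL mice, with PLT mouse 2 alone set apart. In cells with 1800 to 3000 detected genes, PLT mouse 2 still averaged 12.2 RPKM, against 105 RPKM in PLT mouse 1.

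Rab27b, known in mice for dense granule number and secretion, was lower. It averaged 8.42 and 23.9 RPKM in PLT mice, 12.4 and 18.3 RPKM in PEM mice, and 20.7 and 6.53 RPKM in MUL mice. These groups overlapped, and PLT minus MUL was 0.26 ± 0.78 (SE, limma adjusted p = 0.948). Rab27b was above 0 in 453 cells, yet its median was 0.427 RPKM and only 66 cells reached 10 RPKM. PLT mouse 2 was the one mouse in which Rab27b exceeded Rab27a, with 68.6% of their joint RPKM. In the other 5 mice Rab27b held between 7.87% and 33.0%.

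**Figure D2:**
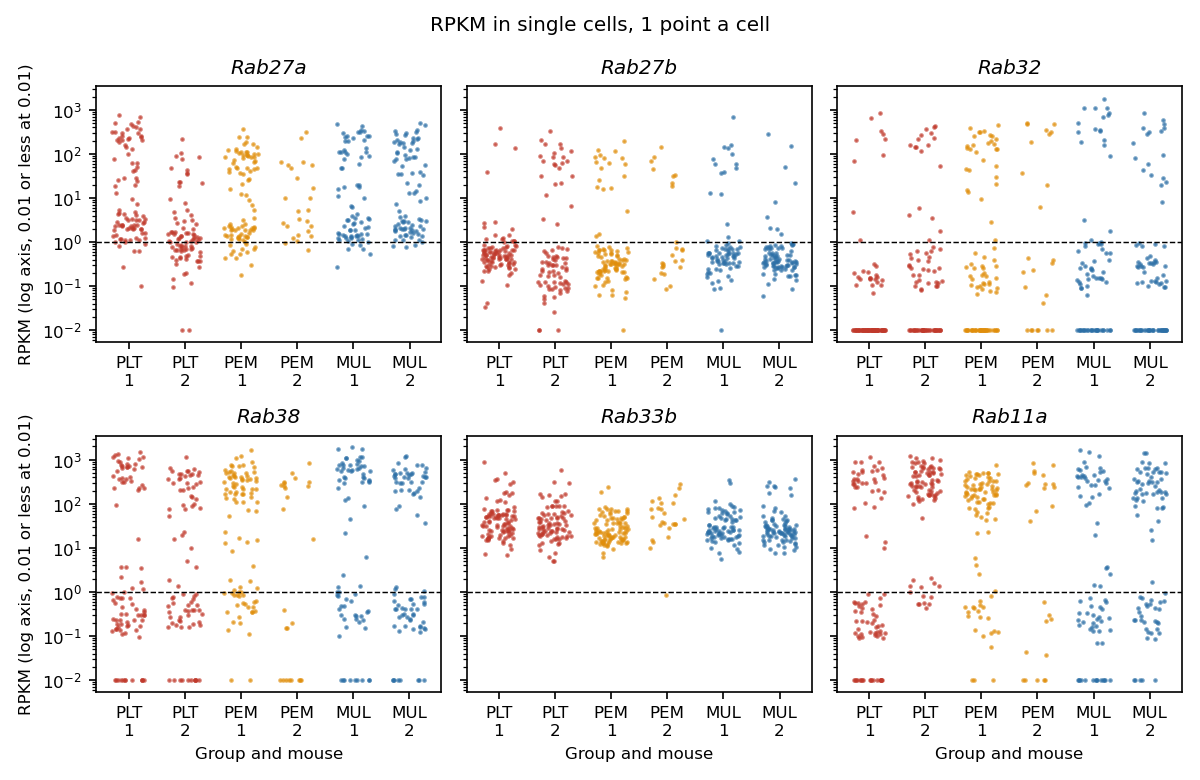
RPKM of 6 Rab genes in single cells (points, log axis) by group and mouse, with the dashed line at 1 RPKM and values of 0.01 or less drawn at 0.01. Rab38 and Rab32 split into cells near 0 and cells mostly above 10 RPKM, Rab33b forms 1 cloud, and Rab27a has a second, low cloud that in PLT mouse 2 straddles the line.

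Counted over the 4 granule members, 24 cells had none at 1 RPKM, 142 had 1, 195 had 2, 79 had 3 and 18 had 4. The counts depended on the threshold: at 10 RPKM, 101 cells had none, 198 had 1, 120 had 2, 28 had 3 and 11 had 4. Rab32 and Rab38 were both positive in 63 cells. Of Rab32-positive cells, 60% also had Rab38. Conversely, 24.7% of Rab38-positive cells had Rab32, beside 20.7% of the cells without Rab38. These shares pool the cells of all mice, and the direction differed between mice. At 1 RPKM, Rab32 was the rarer in Rab38-positive cells in PLT mouse 1, PEM mouse 2 and MUL mouse 1. In the other mice Rab32 was the more frequent there. For example, the shares were 35.8% beside 23.1% in PEM mouse 1, and 38.5% beside 41.7% in PEM mouse 2. At 10 RPKM the direction turned in PEM mouse 2 (38.5% beside 33.3%), MUL mouse 1 (21.4% beside 19.4%) and MUL mouse 2 (17.5% beside 22.2%). The direction in a mouse thus also depended on the threshold. Cells differ in how many genes they yield, and its part in this overlap was not tested.

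Among the remaining high members, Rab11a, which directs recycling endosomes, had means of 151 and 356 RPKM in PLT mice, 172 and 197 RPKM in PEM mice, and 195 and 216 RPKM in MUL mice. The PLT mice again lay at both ends. Rab11a was positive in 38.7% of the cells of PLT mouse 1 (exact 95% binomial interval 28.8% to 49.4%) and in 91.7% of those of PLT mouse 2 (83.6% to 96.6%). Such intervals cover counting error only, and the reads carry no molecular identifiers. PLT mouse 2 was also the one mouse in which every cell was above 0 for Rab11a.

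Rab7, the Rab of late endosomes and lysosomes, averaged 240 and 119 RPKM in PLT mice, 185 and 180 RPKM in PEM mice, and 146 and 237 RPKM in MUL mice. Rab14, of traffic between endosomes and the Golgi, averaged 125 and 97.1 RPKM in PLT mice, 99.0 and 79.6 RPKM in PEM mice, and 136 and 141 RPKM in MUL mice. Rab31, a relative of Rab22a in Golgi to endosome traffic, averaged 98.8 and 73.1 RPKM in PLT mice, 103 and 138 RPKM in PEM mice, and 102 and 104 RPKM in MUL mice. Rab7 overlapped between all groups, whereas Rab14 was higher in both MUL mice than in the other 4. In cells with 1800 to 3000 detected genes Rab14 averaged 151 RPKM in PLT mouse 1, above the 143 and 134 RPKM of MUL mice.

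Rab1, of ER to Golgi transport, averaged 56.5 and 104 RPKM in PLT mice, 95.4 and 118 RPKM in PEM mice, and 162 and 79.9 RPKM in MUL mice. Rab8a, of transport to the plasma membrane and the cilium, averaged 86.0 and 31.4 RPKM in PLT mice, 98.6 and 85.7 RPKM in PEM mice, and 102 and 72.4 RPKM in MUL mice. Both genes overlapped between PLT and MUL mice.

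**Figure D3:**
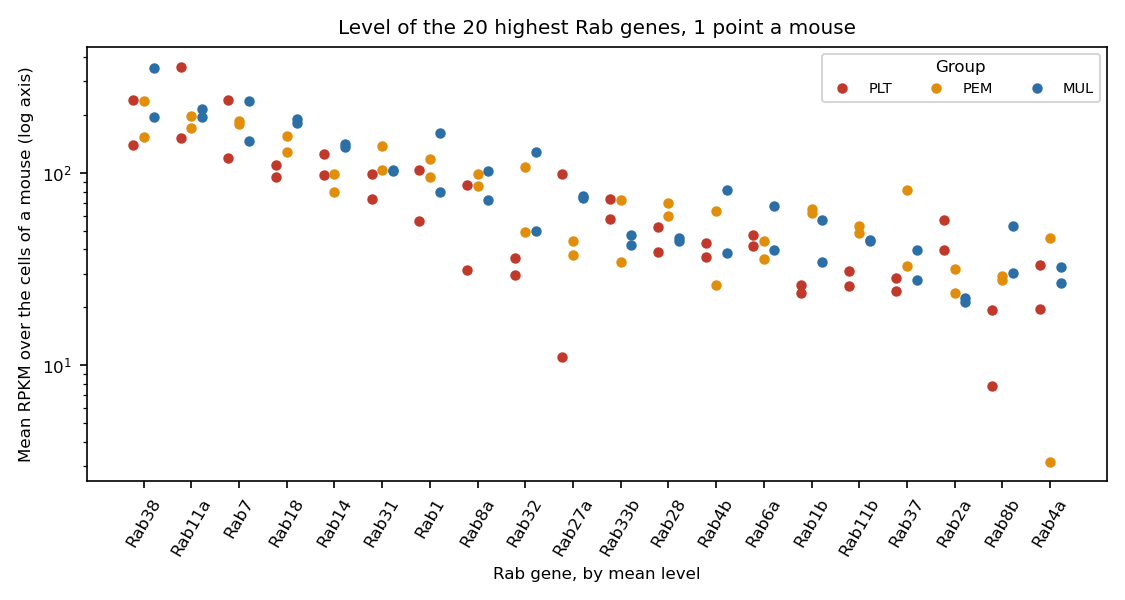
Mean RPKM over the cells of each mouse (points, log axis) for the 20 highest Rab genes, with 2 mice per group. Points of a group are often as far apart as those of different groups, as for Rab27a at 98.6 and 11 RPKM in PLT mice.

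Paralogs differed in constancy. Rab11a held between 76.4% and 93.3% of the joint RPKM of Rab11a and Rab11b, Rab8a between 57.7% and 91.6% of the Rab8 pair, and Rab38 between 59.0% and 89.0% of the Rab32 and Rab38 pair, each the higher in all 6 mice. Rab31 exceeded Rab22a, and Rab4b exceeded Rab4a, in every mouse as well. The Rab5 genes, which organise early endosomes, had no constant leader: Rab5a led in 4 mice and Rab5b and Rab5c in 1 each. Some members are uncertain because their exon bases are shared with another gene: 75.4% for Rab43, 65.0% for Rab4b, 64.0% for Rab2b (in part with Tox4), 62.4% for Rab24 (with Prelid1) and 25.6% for Rab20. The overlapping genes lie on the other strand for Rab2b, Rab24 and Rab20. For Rab43 and Rab4b they lie on the same strand, so strand would not separate them. Whether the counting used strand is not given in the sources used here.

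Between PLT and MUL mice, 0 of the 46 tested Rab genes passed the adjusted threshold of 0.05 by limma, against 0.00882% of all 11337 genes, with a lowest adjusted p of 0.541. At an unadjusted p under 0.05 there were 3, all lower in PLT mice, which is 6.52% of the Rab genes beside 8.41% of all genes, 5.96% counting lower genes alone. Rab8b, a relative of Rab8a, averaged 7.84 and 19.4 RPKM in PLT mice, against 30.3 and 53.0 RPKM in MUL mice, a difference of -1.62 ± 0.60 (SE, limma unadjusted p = 0.0256, adjusted 0.541). Rab18, which acts at the ER and lipid droplets, averaged 94.7 and 110 RPKM in PLT mice, against 191 and 181 RPKM in MUL mice, a difference of -0.85 ± 0.33 (limma adjusted p = 0.560). Its PEM mice lay between, at 155 and 128 RPKM. In cells with 1800 to 3000 detected genes the PLT minus MUL difference of Rab18 was -0.49.

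Rab3d, of regulated exocytosis, averaged 0.684 and 0.835 RPKM in PLT mice, against 4.63 and 5.14 RPKM in MUL mice, a difference of -1.74 ± 0.75 (limma adjusted p = 0.592). Few cells carry that difference: at 10 RPKM or more there was 1 cell in each PLT mouse, against 4 and 5 cells in MUL mice. In the other direction Rab2a, of ER to Golgi transport, averaged 39.6 and 57.2 RPKM in PLT mice, against 22.4 and 21.3 RPKM in MUL mice, a difference of 1.09 ± 0.48 (limma adjusted p = 0.594). Its positive cells made up 10.8% and 35.7% in PLT mice, against 11.5% and 16.5% in MUL mice, and overlapped. Rab10, of exocytic and endosomal transport, averaged 26.4 and 17.4 RPKM in PLT mice, against 10 and 14.3 RPKM in MUL mice (limma adjusted p = 0.772). Rab17, an epithelial recycling Rab, averaged 12.9 and 1.12 RPKM in PLT mice, against 0.0187 and 3.44 RPKM in MUL mice, and overlapped (limma adjusted p = 0.795).

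The mice of PLT and MUL did not overlap in level for 18 Rab genes, 39.1%, beside 39.7% of all genes. The median Rab difference was -0.25, beside -0.18 over all genes. Of the share of positive cells, 0 Rab genes were called at an unadjusted p under 0.05, beside 3.30% of all genes, and the median Rab difference was -2.95 percentage points, beside -0.77. Shares of 10 Rab genes did not overlap, 21.7% beside 29.4% of all genes.

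Between PEM and MUL mice, 0 Rab genes passed the adjusted threshold by limma, as did 0% of all genes, and 0 passed unadjusted, beside 5.59% of all genes. The lowest adjusted p was 0.867. The 3 higher genes with the smallest p were all rare. Rab13, of epithelial junction traffic, averaged 3.75 and 20 RPKM in PEM mice, against 0 and 3.08 RPKM in MUL mice (limma adjusted p = 0.867). In MUL mouse 1 it was positive in 0 of 78 cells, which allows a share of up to 3.85% of cells at 1 RPKM (a limit of 3 cells, for counting error only and not a limit on cells that express the gene). Without marker-bearing cells Rab13 averaged 6.18 and 1.17 RPKM in PEM mice, against 0 and 3.06 RPKM in MUL mice, and overlapped, with a difference of 0.97 in place of 2.30. Rab40c, a Rab with a SOCS box, averaged 2.67 and 7.85 RPKM in PEM mice, against 0.549 and 1.41 RPKM in MUL mice, and rested on 3 and 1 positive cells in PEM mice. Without marker-bearing cells it averaged 4.44 and 0 RPKM in PEM mice, against 0.407 and 2.02 RPKM in MUL mice, and overlapped, with a difference of 0.18 in place of 1.56. Rab39b, a neuronal Rab, averaged 4.82 and 14.8 RPKM in PEM mice, against 0 and 2.94 RPKM in MUL mice, from 2 and 1 positive PEM cells, and its difference was 0.71 in place of 2.27 in cells with 1800 to 3000 detected genes.

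The lower genes with the smallest p were Rab24, Rab14 and Rab20. Rab24, of autophagy, averaged 15.7 and 14.9 RPKM in PEM mice, against 36.7 and 29 RPKM in MUL mice, a difference of -1.05 ± 0.54 (SE, limma adjusted p = 0.867). In cells with 1800 to 3000 detected genes Rab24 averaged 18.9 and 24.5 RPKM in PEM mice, against 22.7 and 24.6 RPKM in MUL mice, and overlapped, with a difference of -0.13. Rab14 differed by -0.64 ± 0.35 (limma adjusted p = 0.887). Rab20, a phagosome and endosome Rab, averaged 11.8 and 0 RPKM in PEM mice, against 27.1 and 7.62 RPKM in MUL mice, and the mice overlapped. Levels of 15 Rab genes did not overlap between these groups, 32.6%, beside 35.7% of all genes. The median Rab difference was -0.06, beside -0.04 over all genes. Of the share of cells, Rab21 and Rab28 were higher in PEM mice at an unadjusted p under 0.05, 4.35% of Rab genes beside 4.30% of all genes in either direction and 3.85% in that one, with a lowest limma adjusted p of 0.822. Shares of 18 Rab genes did not overlap between PEM and MUL mice, 39.1% beside 42.7% of all genes. The median Rab difference in share was 2.87 percentage points, beside 3.10 over all genes.

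Between PLT and PEM mice, 0 Rab genes passed the adjusted threshold by limma, as did 0% of all genes. At an unadjusted p under 0.05 there were 3, all lower in PLT mice, 6.52% beside 8.37% of all genes, 5.88% counting lower genes alone. Rab21, of early endosomes and integrin traffic, averaged 0.786 and 0.634 RPKM in PLT mice, against 5.19 and 25.8 RPKM in PEM mice, a difference of -2.91 ± 0.91 (SE, limma unadjusted p = 0.0116, adjusted 0.545). Rab1b, which shares ER to Golgi transport with Rab1, averaged 23.8 and 26.2 RPKM in PLT mice, against 65.1 and 61.8 RPKM in PEM mice, a difference of -1.31 ± 0.45 (limma adjusted p = 0.561). Rab40c differed by -2.07 ± 0.77 (limma adjusted p = 0.563), and by -0.68 without marker-bearing cells.

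The Rab21 difference depended on which cells were used. In cells with 1800 to 3000 detected genes it averaged 1.31 and 0.599 RPKM in PLT mice, against 6.08 and 0.0714 RPKM in PEM mice, so that the groups overlapped, with a difference of -0.52 in place of -2.91. Rab1b in the same cells averaged 34.6 and 11.2 RPKM in PLT mice, against 29.1 and 62.0 RPKM in PEM mice, and overlapped, though the difference was -1.06 beside -1.31 over all cells. The higher genes with the smallest p were Rab2a at 0.78 ± 0.48, Rab17 at 1.74 ± 1.14 and Rab22a at 1.49 ± 1.09, each with a limma adjusted p of at least 0.691.

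Levels of 18 Rab genes did not overlap between PLT and PEM mice, 39.1%, beside 36% of all genes, and the median Rab difference was -0.39, beside -0.13. Of the share of cells, 5 Rab genes were lower in PLT mice at an unadjusted p under 0.05, namely Rab11b, Rab21, Rab28, Rab32 and Rab37. They are 10.9% of Rab genes beside 10.2% of all genes in either direction and 9.74% in that one, with a lowest limma adjusted p of 0.477. Shares of 23 Rab genes did not overlap, 50% beside 37.1% of all genes. The median Rab difference in share was -4.20 percentage points, beside -3.90 over all genes. The median number of genes at 1 RPKM or more per cell did not overlap between these groups either. It was 1863 and 2587.5 in PLT mice, against 3170 and 2743 in PEM mice, and its part in the shares was not tested. Rab11b was positive in 33.3% and 39.3% of the cells of PLT mice, against 71.0% and 76.0% of those of PEM mice. Rab28 was positive in 12.9% and 14.3% of the cells of PLT mice, against 36.6% and 36% of those of PEM mice. Rab37, known from granule secretion in mast cells, averaged 24.3 and 28.3 RPKM in PLT mice, against 32.8 and 81.1 RPKM in PEM mice. PEM mouse 2, the highest for Rab37, was also the highest for neutrophil markers by summed RPKM. By the share of cells with at least 3 neutrophil markers, PLT mouse 1 was the highest instead. The part of such cells in the Rab37 values was not tested. Without marker-bearing cells Rab37 averaged 31.1 and 21.7 RPKM in PLT mice, against 28.7 and 93.5 RPKM in PEM mice, and the levels overlapped. Its share in those cells was 10.1% and 26.7% in PLT mice, against 35.7% and 69.2% in PEM mice, and did not overlap. In cells with 1800 to 3000 detected genes Rab37 averaged 24.8 and 28.8 RPKM in PLT mice, against 6.33 and 128 RPKM in PEM mice, and the levels overlapped as well. Its share there was 9.09% and 21.4% in PLT mice, against 11.1% and 63.6% in PEM mice, and overlapped. Beside these 5 shares stand the mitochondrial and macrophage marker shares above, in which PLT and PEM mice also did not overlap. By summed RPKM the macrophage and monocyte markers of PLT and PEM mice did overlap.

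By role, 2 classes are given here that were singled out after their values were seen, and neither holds a gene past adjustment. Of the 12 tested genes of ER to Golgi and Golgi traffic, 10 were lower in PLT than in MUL mice at any size (median -0.54). That stands beside 58.3% of all genes and 71.7% of the tested Rab genes. The summed RPKM of this class was 355 and 419 in PLT mice, against 519 and 541 in MUL mice. Of the 7 tested genes of regulated secretion and granules, 7 were lower in PLT than in PEM mice at any size (median -0.95). That stands beside 56.3% of all genes and 65.2% of the tested Rab genes. Rab38 and Rab27b differed by only -0.07 each and Rab27a by -0.27. The summed RPKM of this class was 401 and 247 in PLT mice, against 383 and 411 in PEM mice, and overlapped. The number at an unadjusted p under 0.05 was 1 in the first class and 0 in the second. Both comparisons use the same PLT mice.

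**Figure D4:**
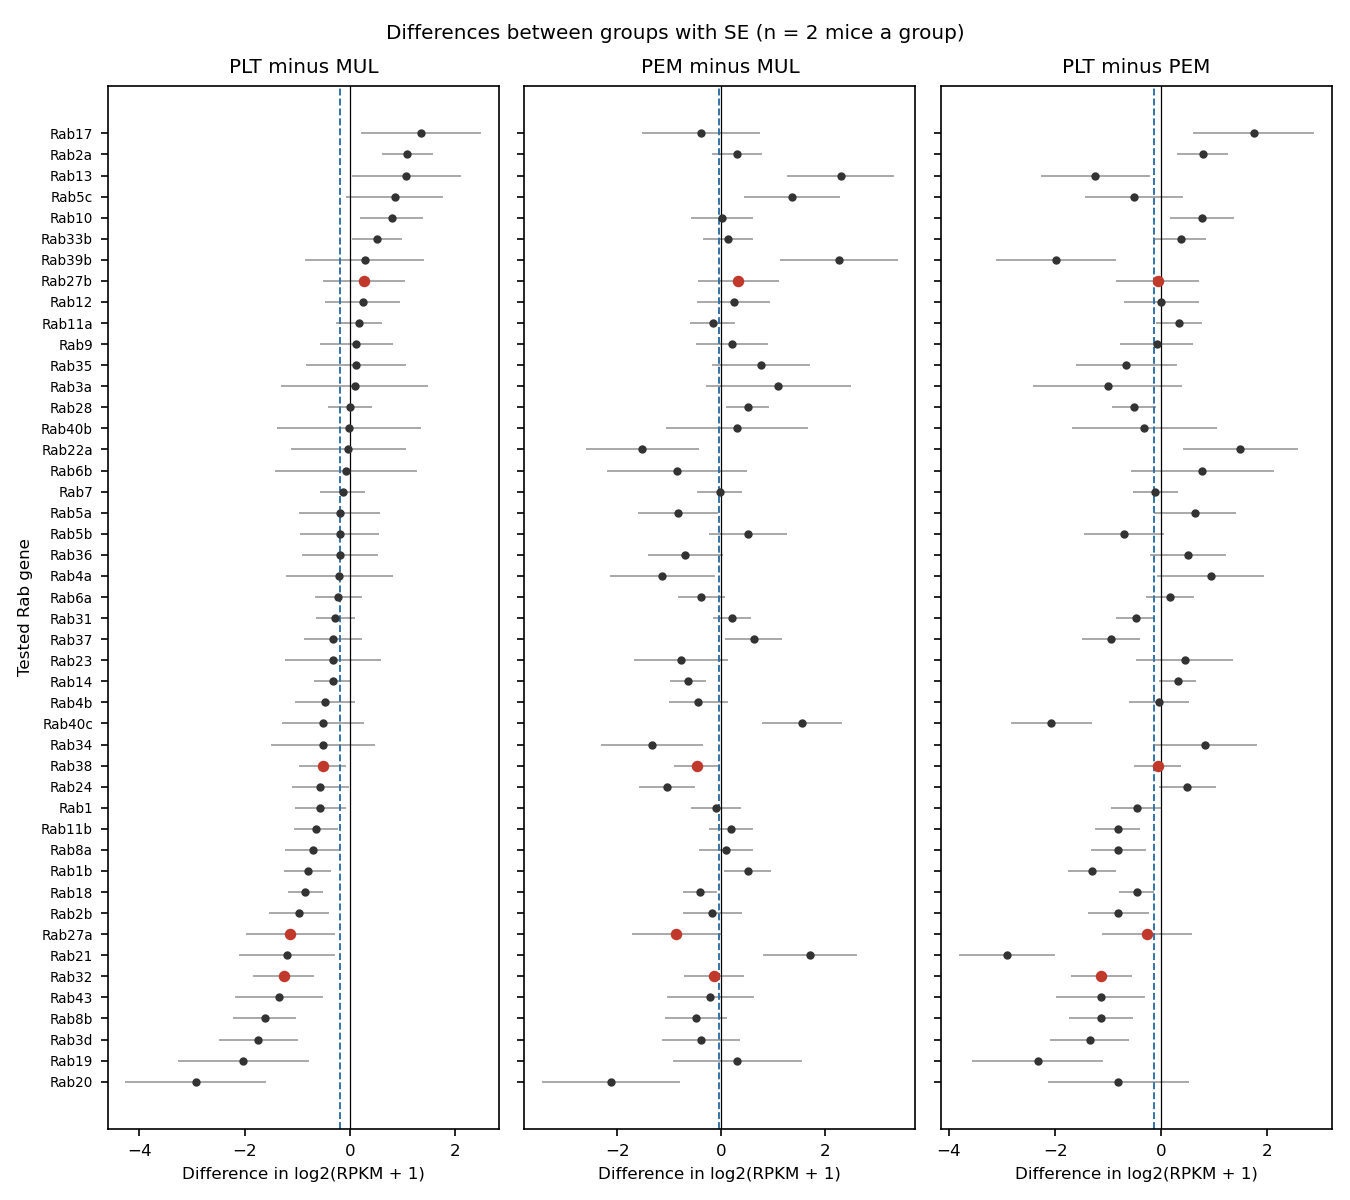
Difference in log2(RPKM + 1) with its SE for the 46 tested Rab genes in PLT minus MUL, PEM minus MUL and PLT minus PEM (n = 2 mice a group), with the median of all tested genes as a dashed line and the 4 granule members in red. None passed adjustment, and the medians were -0.25, -0.06 and -0.39.

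The number of Rab genes positive in a cell followed the number of all genes. The median cell had 8 and 11 Rab genes in PLT mice, 14 and 13 in PEM mice, and 10 and 11 in MUL mice, within a range of 3 to 26 over all cells. All genes at 1 RPKM or more numbered 1863 and 2587.5 in PLT mice, 3170 and 2743 in PEM mice, and 2201.5 and 2543 in MUL mice, the same order of mice but for 1 tie. As a share of the positive genes of a cell, Rab genes were 0.402% and 0.411% in PLT mice, 0.438% and 0.461% in PEM mice, and 0.444% and 0.450% in MUL mice. The PLT mice had the 2 lowest shares, by a small margin. Within cells of 1800 to 3000 detected genes the mean of the mouse medians was 9 Rab genes in PLT, 12 in PEM and 11 in MUL mice.

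By level, the summed Rab RPKM per cell averaged 1794 and 1596 in PLT mice, 1885 and 1977 in PEM mice, and 2174 and 2081 in MUL mice. By these means the 3 groups did not overlap. The median sum per cell was 1824 and 1560 RPKM in PLT mice, 1901 and 2024 RPKM in PEM mice, and 2090 and 2020 RPKM in MUL mice. By these medians PEM and MUL mice overlapped. In the median cell, Rab genes took 0.346% and 0.258% of all RPKM in PLT mice, 0.344% and 0.351% in PEM mice, and 0.406% and 0.407% in MUL mice. These shares of PLT and PEM mice overlapped, and those of the MUL mice, which share a title prefix, were higher. No test was run on these sums.

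**Figure D5:**
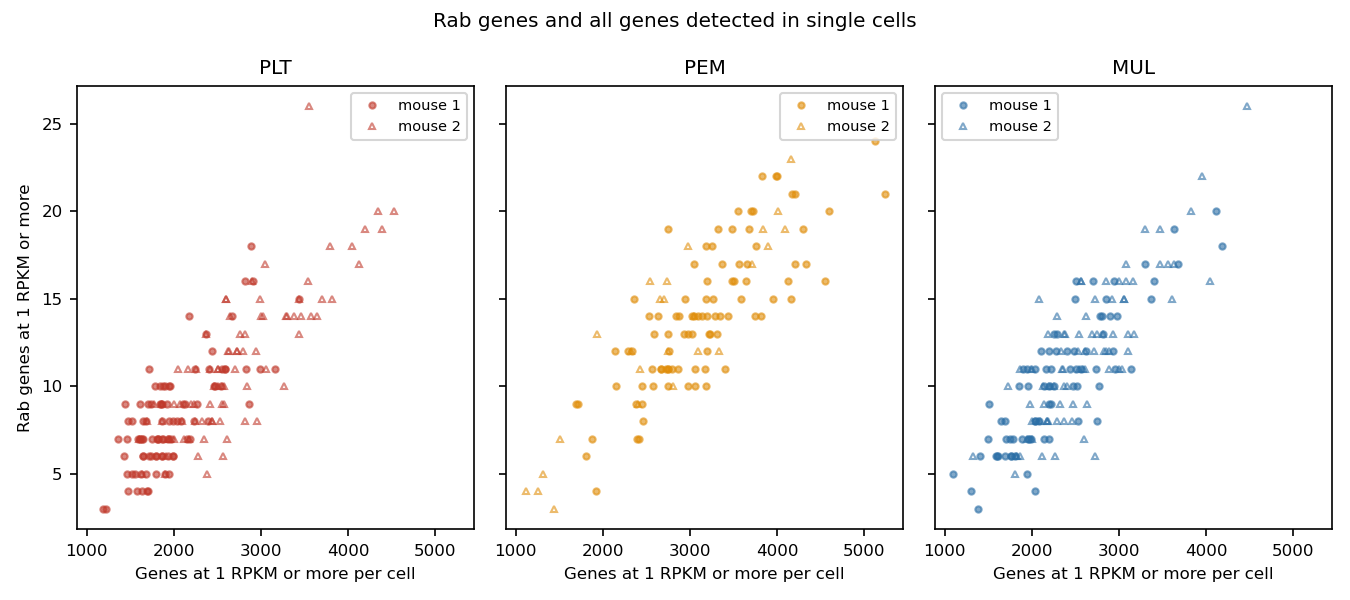
Rab genes at 1 RPKM or more (y axis) against all genes at 1 RPKM or more (x axis) in single cells, by group and mouse. In each group the Rab count climbs with the gene count, and most cells of PLT mouse 1 lie at the low end of both.

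The genes that load, switch and read Rab proteins gave the same picture. By limma, 0 of the tested members of any list passed adjustment in level or share, with 8 of 8 tested for prenylation and recycling, 37 of 41 activators, 28 of 33 inactivators, 27 of 38 effectors and 33 of 38 genes of platelet granule biogenesis and release. Hps1, a subunit of the BLOC-3 complex that activates Rab32 and Rab38, averaged 0 and 2.25 RPKM in PLT mice, against 4.97 and 20.8 RPKM in MUL mice (limma adjusted p = 0.548). Osbpl1a, a Rab7 effector, averaged 12.2 and 8.92 RPKM in PLT mice, against 44.2 and 35.8 RPKM in MUL mice, a difference of -1.83 ± 0.52 (SE, limma adjusted p = 0.480). Tbc1d22a, of the family of Rab GAPs, averaged 0.820 and 1.24 RPKM in PLT mice, against 6.59 and 12 RPKM in MUL mice (limma adjusted p = 0.506).

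At an unadjusted p under 0.05, PLT minus MUL had 3 of 28 inactivators, 3 of 27 effectors, 2 of 33 granule genes and 1 of 37 activators, all lower in PLT mice, and 0 of 8 prenylation and recycling genes, beside 8.41% of all genes and 5.96% lower. The lists share some genes, so these are not all separate genes. Hps1 is counted there both as the activator and as a granule gene. In PEM minus MUL there were 1 activator, higher in PEM mice, and 1 inactivator, 1 effector and 2 granule genes, lower in PEM mice, beside 5.59% of all genes. Sytl4 is counted there both as the effector and as a granule gene. In PLT minus PEM there were 2 inactivators, 2 effectors, 1 prenylation and recycling gene and 1 granule gene, lower in PLT mice, and 1 granule gene, higher in PLT mice, beside 8.37% of all genes. Other genes with the smallest p of a list were Dennd4a (1.28 ± 0.69), a GEF, Ap3m1 (1.38 ± 0.63), a subunit of the AP-3 adaptor, Appl1 (1.53 ± 0.90), a Rab5 effector, Evi5 (0.78 ± 0.96), a GAP-family gene, Chm (0.45 ± 0.78), an escort protein for prenylation, and Rabggta (-0.89 ± 0.69), a transferase subunit, each PLT minus MUL on the log2(RPKM + 1) scale with its SE. Their limma adjusted p lay between 0.606 and 0.911.

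Sytl4, an effector of Rab27 in granule release, averaged 1.62 and 0 RPKM in PEM mice, against 13 and 13.2 RPKM in MUL mice, a difference of -3.12 ± 0.99 (SE, limma adjusted p = 0.867). Its PLT mice had 5.15 and 0.190 RPKM. The other genes of smallest p in PEM minus MUL were Sbf2 (1.64 ± 0.66), Tbc1d8b (1.23 ± 0.61), Plekhm1 (1.72 ± 0.83), Gfi1b (1.38 ± 0.70), Rabac1 (0.53 ± 0.36), Ccz1 (-2.14 ± 0.98), a subunit of the Rab7 activator, Rab3gap1 (-2.52 ± 1.07) and Rabif (-0.48 ± 0.51), with limma adjusted p between 0.867 and 0.938. Gfi1b, a transcription factor needed for platelet production and granules, averaged 22.8 and 74.3 RPKM in PLT mice, against 128 and 210 RPKM in PEM mice, a difference of -1.96 ± 0.70 (SE, limma adjusted p = 0.563). Rabac1, a factor that releases Rab proteins from GDP dissociation inhibitor, averaged 87.7 and 93.2 RPKM in PLT mice, against 211 and 149 RPKM in PEM mice (limma adjusted p = 0.563). The other genes of smallest p in PLT minus PEM were Trappc4 (0.90 ± 0.43), a TRAPP subunit, Evi5 (1.65 ± 0.96), Appl2 (2.44 ± 1.22), Ap3s1 (2.11 ± 0.89), an AP-3 subunit, Rabif (0.37 ± 0.51), Dennd6b (-1.69 ± 0.74), Tbc1d22a (-2.28 ± 0.75) and Gorasp2 (-1.43 ± 0.55), with limma adjusted p between 0.561 and 0.860. Megakaryocyte and platelet markers summed to 369 and 789 RPKM in PLT mice, 871 and 1698 RPKM in PEM mice, and 427 and 442 RPKM in MUL mice; their part in these values was not tested.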

How the data were processed

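Single cells were index sorted and sequenced 1 per library, per the labels' protocols. Per the submitters' processing notes, the tools were TopHat and featureCounts on mm10; their versions are not given in the sources used here. The authors deposited RPKM for 22645 genes and a table with the count of mapped reads and of detected genes and the percent of mitochondrial reads per cell, per the file headers. Whole reads were not recovered, so no count model was fitted. Cells are not replicates: each mouse was represented by its mean RPKM per gene, and log2(mean RPKM + 1) of the 6 mice was fitted with limma 3.58.1 in R 4.3.3 (1 mean per group, trended eBayes, Benjamini-Hochberg adjustment over 11337 genes, threshold 0.05). Fold changes on this scale understate changes of low genes. The share of cells at 1 RPKM or more was tested likewise after an arcsine square root. Moderated tests had 8.33 degrees of freedom for level and 6.78 for share, of which 3 were residual. No cell was filtered and no doublet caller run.

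Named genes are the 4 granule members, the 10 highest, the 3 of smallest p per contrast and direction, those past the threshold, those under 1 RPKM everywhere, and the smallest p per machinery list; Rab33b, Rab37, Rab11b and Rab28 were described after their values were seen. Members, lists and tests were chosen with earlier results of these data known. Alternatives covered pseudocounts, filters, normalization, cell subsets, thresholds and each mouse left out; the 10 RPKM threshold was added after seeing the data. Positions are from GENCODE M21 on mm10.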

Additional observations from a re-analysis of the deposited data

How the results depend on the processing

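No Rab gene passed adjustment under any of 18 settings for level or 13 for share in any contrast. The lowest limma adjusted p over settings was 0.376 for level in PLT minus MUL, 0.323 in PEM minus MUL and 0.304 in PLT minus PEM, and 0.33, 0.2 and 0.180 for share.

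The median Rab difference of PLT minus MUL ranged from -0.59 (without PLT mouse 1) to -0.13 (without PLT mouse 2) when each mouse was left out, and was -0.48 without MUL mouse 1. That of PEM minus MUL was 0.17 with the mean of log2 values over cells, 0.15 with 25 cells per mouse, 0.13 without cells bearing markers of other types and -0.30 in cells with 1800 to 3000 detected genes, so its direction was not stable. That of PLT minus PEM was -0.17 with a pseudocount of 10, -0.19 with no filter on low values and -0.20 with quantile normalization, and ranged from -0.39 to -0.19 when each mouse was left out. Of the named genes, Rab17 in PLT minus MUL ranged from -0.00 (without PLT mouse 1) to 2.71 (without PLT mouse 2) and was -0.00 with the mean of log2 values; the sign of Rab22a in PLT minus PEM reversed to -0.31 with 25 cells per mouse, and that of Rab2a in PLT minus PEM to -0.08 with the mean of log2 values. With the mean of log2 values over cells, Rab3d in PLT minus MUL came to -0.22, and in PEM minus MUL Rab13 came to 0.40, Rab39b to 0.18, Rab40c to 0.15, Rab24 to -0.14 and Rab20 to -0.18. In PLT minus PEM, Rab21 came to -0.66 and Rab40c to -0.18. Without PEM mouse 2, Rab20 in PEM minus MUL was -0.28. Rab genes per cell came to 19.2 in PLT, 23.0 in PEM and 21 in MUL mice above 0 RPKM. In PEM mice the count was 12 at 5 RPKM, 11.5 at 10 RPKM, 12 in cells of 1800 to 3000 genes and 14.5 without marker-bearing cells, and in MUL mice 9 at 5 RPKM and 8.50 at 10 RPKM. The cause of these shifts was not tested. No paired analysis was possible because the labels carry no mouse numbers that link mice of different groups.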
